A study of Mus musculus with 23 samples.

Results

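The 10 genes described here encode 6 cytokines (Il1a, Il1b, Il18, Tnf, Il6 and Il10) and 4 parts of the inflammasome pathway (Nlrp3, Pycard, Casp1 and Gsdmd). They were taken by their listed symbols, matched through Ensembl identifiers, from the 35825 genes of the table, and 10 of 10 were among the 17102 genes that passed the filter on low values. RNA-seq was performed on GFP+ microglia sorted from mouse retinas, in 23 libraries that were made from pooled retinas of several mice. The WT groups (CX3CR1-GFP, wild type for Spp1) held 4 libraries from naïve retinas, 4 from retinas at 4 weeks after intraocular pressure (IOP) elevation by microbeads and 3 from retinas at day 7 after optic nerve crush (ONC). The KO groups (Spp1 KO; CX3CR1-GFP, a knockout of Spp1 in all cells) held 4 libraries each for the same conditions. All 6 groups carry the Cx3cr1-GFP allele, which puts GFP in the place of Cx3cr1 and marks microglia as well as other cells of the monocyte and macrophage lineage. The naïve retinas of each genotype served as controls for both injuries. Their libraries are labelled control, and the labels do not say whether the eyes had a saline injection, which the study gave to its microbead controls. Nothing in the labels ties a library to separate mice beyond its pool, so the p-values measure the spread between these libraries, part of which may be technical.

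The inflammasome is a protein platform that forms inside myeloid cells after a danger signal. The sensor NLRP3 recruits the adaptor ASC, the product of Pycard, which activates caspase-1, the product of Casp1. Caspase-1 cleaves the precursors encoded by Il1b and Il18 into their secreted forms, and it cleaves gasdermin D (Gsdmd), whose fragment forms the membrane pores through which these cytokines leave the cell. Il1a and Tnf encode inflammatory signals that microglia release in injured neural tissue, where both are known to drive reactive states of astrocytes. Il6 encodes an inflammatory cytokine with its own receptor pathway, and the product of Il10 restrains the inflammatory output of macrophages. RNA levels do not show cleavage or release of any of these proteins.

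Values are normalized counts, that is, the reads on a gene after division by the size factor of its library, and replicates are listed in their labelled order. Differences are log2 differences of normalized count + 1 with the standard error (SE) from limma, and a gene was called when its Benjamini-Hochberg adjusted p over the 17102 genes was under 0.05 and its log2 difference was over 0.58 in size. Exact two-sided permutation tests were run on 70 pairs of a member and a comparison. Their smallest possible p was 0.0286 for 4 against 4 libraries and 0.0571 for 4 against 3. The lowest adjusted p in that family was 0.143, so 0 of the 70 exact tests passed after adjustment. With so few libraries, most of the 70 tests would have had to reach the smallest p for any to pass. The adjusted values therefore decide little, and no conclusion is drawn from them.

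Several libraries stood apart. The sort was checked on 22 microglia and macrophage identity genes, and Cx3cr1 was left out of their sum because the GFP allele alters it. Tmem119, P2ry12 and Csf1r were abundant in all 23 libraries, with a lowest normalized count of 17495 for P2ry12. The other 21 identity genes together made up 4.28 to 6.16% of the library in 18 libraries, but 1.91, 2.34 and 2.52% in KO naïve replicates 1, 2 and 4 and 2.93 and 3.16% in WT IOP replicates 1 and 4. Rod photoreceptor genes held 1.24 to 3.91% of the KO naïve libraries, with the lowest share in replicate 3. Lens genes summed to 36760 to 256344 normalized counts in the 4 WT IOP libraries and to 1392 to 6116 in the other groups. Fewer microglia in the sort and less RNA per microglial cell cannot be told apart in bulk libraries, so results that rest on these libraries are also given without them or per identity count.

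The targeted gene did not separate the genotypes in every library. Spp1 was 334 to 1518 normalized counts in WT naïve, 1343 to 2772 in WT IOP and 14556 to 22906 in WT ONC libraries. In KO libraries it was 350.2, 53.1, 6.78 and 81.6 in naïve retinas, 25.5, 811, 9.28 and 761 after IOP elevation, and 4750.4, 6811, 15.0 and 6226 after ONC. The libraries labelled KO ONC replicates 1, 2 and 4 thus held more Spp1 than any naïve WT library, and the part of the gene that these reads cover was not tested. Cx3cr1 was 952 to 1233 in the 4 KO IOP libraries and 9417 to 67878 in the other groups, and the Y-linked gene Ddx3y was at most 3.05 in KO IOP and 1369 to 1717 in KO ONC libraries. Ddx3y was also low in WT naïve replicate 3 (0), in WT ONC replicates 2 and 3 (9.21 and 3.51) and in KO naïve replicate 3 (28.1), against 1302 to 1713 in the other KO naïve libraries, so that the comparisons with KO naïve replicate 3 alone also differ in this gene. Effects of IOP elevation or genotype in the KO IOP libraries cannot be told apart from what these differences mark.

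Promoter sequences are shown for the cytokine genes Il1a, Il1b and Tnf and for Pycard and Casp1, the adaptor and the enzyme of the inflammasome, because all were called higher after ONC in KO microglia. The sequences are those of RefSeq on GRCm38.p6, from 250 bases before to 50 bases after the gene start, 5′ to 3′ on the gene's own strand. They lie at chr2:129309923-129310222 (minus strand) for Il1a, chr2:129371090-129371389 (minus strand) for Il1b, chr17:35201958-35202257 (minus strand) for Tnf, chr7:127993818-127994117 (minus strand) for Pycard and chr9:5298267-5298566 (plus strand) for Casp1. Capitals mark matches, on either strand, to any of 6 motifs: the NF-kB consensus, AP-1 (TGANTCA), PU.1 (GAGGAAG), STAT (TTCNNNGAA), the interferon response element and the TATA box (TATAAA).
Il1a: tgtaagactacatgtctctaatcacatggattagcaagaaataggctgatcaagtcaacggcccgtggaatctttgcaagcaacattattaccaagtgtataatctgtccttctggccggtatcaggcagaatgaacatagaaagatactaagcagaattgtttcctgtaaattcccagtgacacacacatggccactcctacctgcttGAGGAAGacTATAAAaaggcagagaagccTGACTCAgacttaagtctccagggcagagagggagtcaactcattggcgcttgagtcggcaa
Il1b: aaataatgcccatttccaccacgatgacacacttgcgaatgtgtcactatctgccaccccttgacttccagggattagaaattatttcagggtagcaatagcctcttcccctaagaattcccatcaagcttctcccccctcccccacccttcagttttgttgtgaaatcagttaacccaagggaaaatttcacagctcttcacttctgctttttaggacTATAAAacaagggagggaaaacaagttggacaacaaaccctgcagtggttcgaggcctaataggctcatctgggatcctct
Tnf: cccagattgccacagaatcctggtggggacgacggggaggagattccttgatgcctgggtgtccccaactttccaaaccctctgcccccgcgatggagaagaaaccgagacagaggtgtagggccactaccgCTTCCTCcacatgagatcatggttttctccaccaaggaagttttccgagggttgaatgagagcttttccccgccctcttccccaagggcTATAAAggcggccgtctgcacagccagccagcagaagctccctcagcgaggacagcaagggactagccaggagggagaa
Pycard: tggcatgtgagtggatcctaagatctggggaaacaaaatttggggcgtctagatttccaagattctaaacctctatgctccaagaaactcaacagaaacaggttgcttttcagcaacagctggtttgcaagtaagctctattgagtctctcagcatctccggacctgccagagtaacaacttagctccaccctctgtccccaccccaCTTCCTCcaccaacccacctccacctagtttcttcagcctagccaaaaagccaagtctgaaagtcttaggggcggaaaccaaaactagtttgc
Casp1: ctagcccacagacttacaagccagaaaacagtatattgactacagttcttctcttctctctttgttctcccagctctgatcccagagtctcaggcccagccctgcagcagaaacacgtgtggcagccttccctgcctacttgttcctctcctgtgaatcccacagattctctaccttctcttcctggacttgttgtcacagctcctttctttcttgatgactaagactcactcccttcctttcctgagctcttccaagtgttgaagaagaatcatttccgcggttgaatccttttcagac

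The TATA box was found on the gene's strand of 3 cytokine genes. Il1a, Il1b and Tnf held TATAAA starting 32, 31 and 29 bases before the start, whereas no TATAAA was found in this window of Pycard or Casp1. Il18 held it on the opposite strand, 175 bases before the start. It was present in 13.6% of all 32851 promoters of the table. Il1a also held AP-1 12 bases before the start, a motif in 7.81% of promoters that Il6 held near the far end of its window, and the PU.1 motif 41 bases before it. PU.1, the product of Spi1, is a main transcription factor of the myeloid lineage, and its motif was also found on the opposite strand of Tnf at 118 and of Pycard at 43 bases before the start, at 2 places in the other promoter of Nlrp3 (130 bases before the start on the opposite strand and 36 on the same strand), and in 13.6% of all promoters. An NF-kB match (8.46% of promoters) was present in Il6 at 44 bases and in a promoter of Nlrp3 at 186 bases before the start. STAT (8.30%) and interferon response (3.44%) motifs were found in 0 of the 9 promoters of 8 members. No matches of different motifs overlapped in these promoters. Il10 and Gsdmd were not among the matched promoters. The matches describe letters in this window and show nothing about binding.

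In naïve WT microglia Il1a and the inflammasome genes other than Nlrp3 were the abundant members. Per kilobase of exon, the mean normalized count was 995 for Il1a, 665 for Gsdmd, 661 for Pycard, 415 for Casp1 and 356 for Il18. The sensor Nlrp3 was lower at 85.7, followed by Il1b at 60.8, Tnf at 32.8, Il6 at 6.41 and Il10 at 6.24 normalized counts per kilobase. In this order Gsdmd and Pycard, Casp1 and Il18, and the lowly expressed Tnf, Il6 and Il10 overlapped with their neighbours. Over all 23 libraries, Pycard ranged from 755 to 23588 normalized counts and Gsdmd from 642 to 3281.

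**Figure D1:**
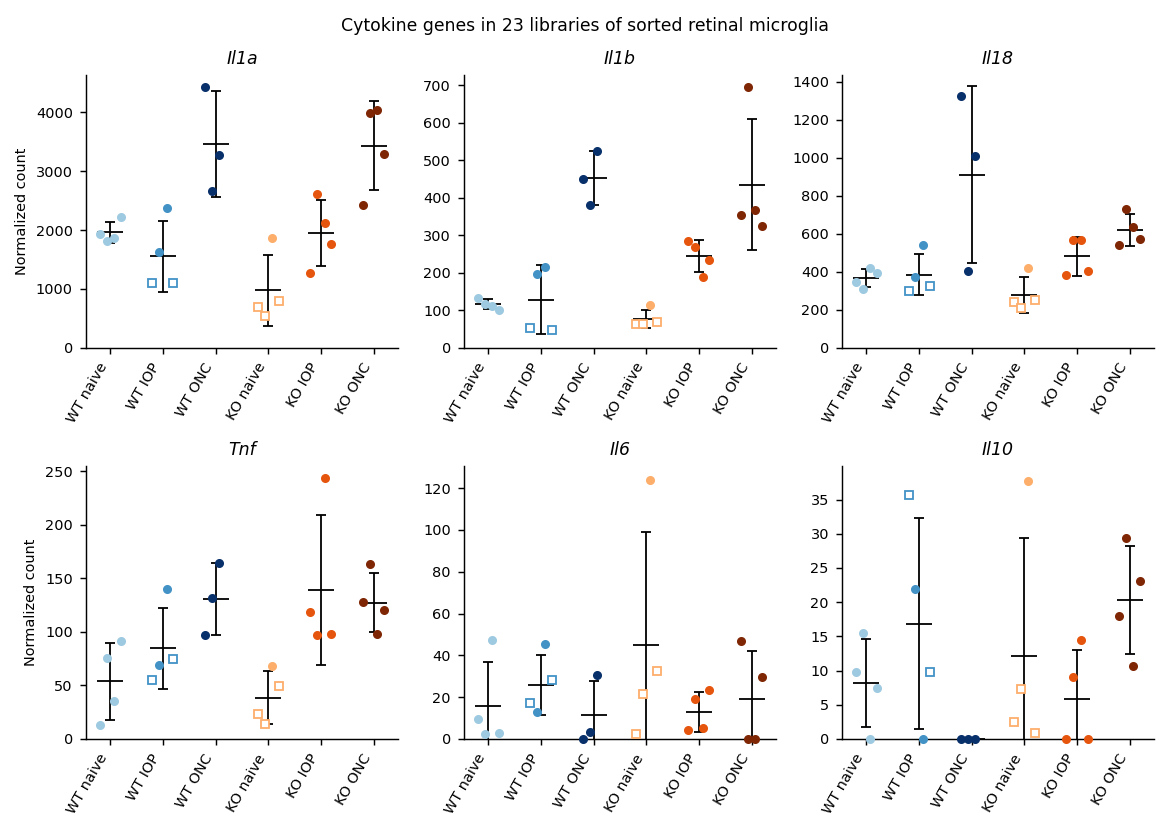
Normalized counts (y axis, linear) of the 6 cytokine genes in the 6 groups (x axis), with 1 point per library and the mean ± SD as black bars. Open squares are KO naïve replicates 1, 2 and 4 and WT IOP replicates 1 and 4, which are low in microglial identity genes. Il1b lies between 323 and 695 in the ONC libraries, while Il6 and Il10 reach at most 124 and 37.8 in any library.

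ONC was followed by higher Il1b, Il18, Pycard and Casp1 in WT microglia. Of the 10 members, 4 were called higher and 0 lower, where 7.55% of all genes tested were called higher. Nlrp3, the sensor, was not called.

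Il1b was 132, 118, 112 and 101 in WT naïve libraries and 448, 381 and 525 in WT ONC libraries. The groups did not overlap, and the means differed 3.90-fold (log2 1.95, SE 0.45, adjusted p = 0.00496 by limma). Pycard was 2449, 2501, 2419.7 and 2685 in WT naïve and 23588, 5048 and 9217 in WT ONC libraries. The ONC libraries were all above the naïve ones, with replicate 1 far above the others. The log2 difference of Pycard was 2.04 (SE 0.39, adjusted p = 0.000967 by limma) and 1.44 (adjusted p = 0.0133) without WT ONC replicate 1. Casp1 was 514, 654, 719 and 598 in WT naïve and 1683, 896 and 1295 in WT ONC libraries, again without overlap (log2 1.02, SE 0.28, adjusted p = 0.0161 by limma). Il18 was 347, 309.7, 419 and 392 in WT naïve and 1323, 404 and 1007 in WT ONC libraries, and ONC replicate 2 lay within the naïve range (log2 1.16, SE 0.33, adjusted p = 0.0168). The calls of Il18 and Casp1 were lost without WT ONC replicate 1 (log2 0.81 and 0.80, adjusted p = 0.149 and 0.117) and without WT ONC replicate 3 (log2 1.00 and 0.99, adjusted p = 0.0804 and 0.0527).

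The other members gave values on both sides of 0 after ONC in WT microglia. Il1a was 1937, 1821, 1872 and 2222 in WT naïve and 4438, 2666 and 3279 in WT ONC libraries, and Gsdmd was 1610.3, 1585, 1561 and 1563 against 3281, 2015 and 2482. Neither gene overlapped between the groups and neither was called (log2 0.79 and 0.69, adjusted p = 0.107 and 0.105 by limma). Tnf was 13.3, 75.2, 35.5 and 91.0 in WT naïve and 96.6, 131 and 164 in WT ONC libraries (log2 1.56, adjusted p = 0.0729), and it was called without WT naïve replicate 4 (log2 1.91, adjusted p = 0.0410). Nlrp3 was 391, 349.7, 319 and 331 in WT naïve and 77.8, 205 and 333 in WT ONC libraries, with an overlap in ONC replicate 3 (log2 -0.98, adjusted p = 0.127). In all, 6 members (Il1a, Il1b, Tnf, Pycard, Casp1 and Gsdmd) were higher in every WT ONC than in every WT naïve library, as were 12.1% of all genes tested. The exact permutation p of each of these 6 was 0.0571, the smallest that this design allows. On recovered reads edgeR called the same 4 members higher as limma, and DESeq2 called these 4 and Il10, which was lower.

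**Figure D2:**
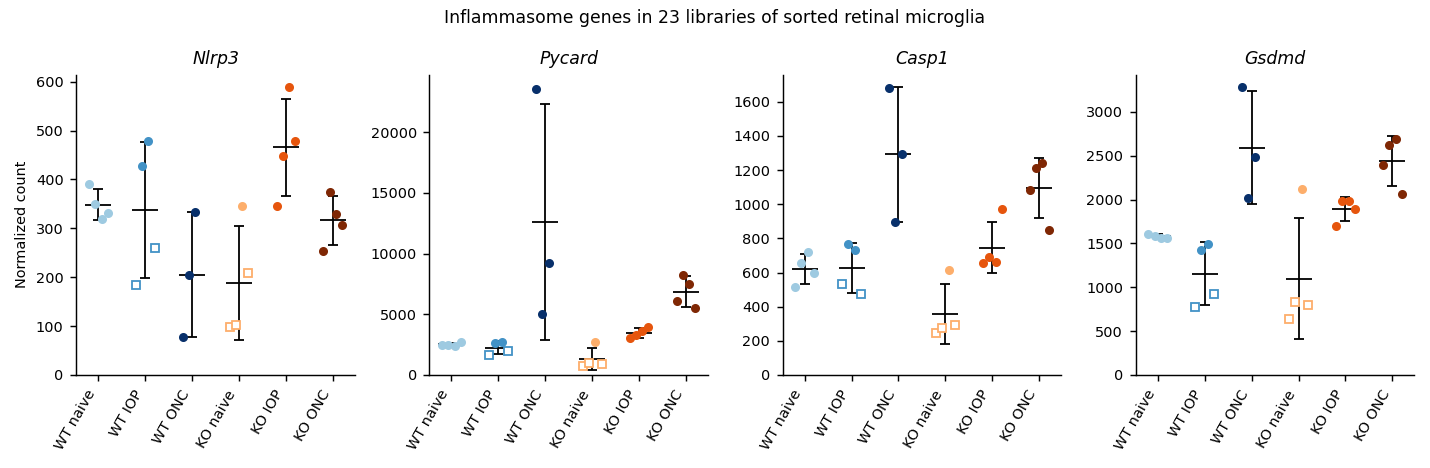
Normalized counts (y axis, linear) of Nlrp3, Pycard, Casp1 and Gsdmd in the 6 groups (x axis), drawn as in the plot of the cytokines with the mean ± SD as black bars. Pycard reaches 23588 in WT ONC replicate 1, while Nlrp3 is at 77.8 in that same library, the lowest Nlrp3 value of the 23.

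In KO microglia, ONC was followed by higher levels of 7 of the 10 members: Il1a, Il1b, Il18, Tnf, Pycard, Casp1 and Gsdmd. The share of all genes called higher in this comparison was 12.7%. Il1b was 62.9, 63.5, 113 and 68.0 in KO naïve and 354, 695, 366 and 323 in KO ONC libraries. All 4 KO ONC values lay above the KO naïve ones (log2 2.46, SE 0.42, adjusted p = 0.000300 by limma). Pycard was 755, 967, 2680.4 and 892 in KO naïve and 6073, 8273, 7519 and 5558 in KO ONC libraries (log2 2.56, SE 0.36, adjusted p = 4.75e-05). Casp1 was 245, 277, 617 and 292 in KO naïve and 1081, 1209.5, 1242 and 849 in KO ONC libraries (log2 1.70, SE 0.26, adjusted p = 0.000114). Neither gene overlapped, and in each the highest naïve value came from replicate 3, the KO naïve library with a share of identity genes like that of the other groups.

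Il1a was 698, 534, 1863 and 794 in KO naïve and 2421, 3985, 4043 and 3292 in KO ONC libraries (log2 1.96, SE 0.32, adjusted p = 0.000167 by limma). Its groups did not overlap, and KO naïve replicate 3 lay in the WT naïve range. For Gsdmd the groups overlapped, with 642, 831, 2121 and 795 in KO naïve and 2392, 2617, 2686 and 2059 in KO ONC libraries (log2 1.32, SE 0.27, adjusted p = 0.00144). Il18 was 238, 209.9, 418 and 251 in KO naïve and 542, 731, 633 and 575 in KO ONC libraries (log2 1.19, SE 0.30, adjusted p = 0.00620). Tnf was 23.7, 13.7, 67.8 and 49.3 in KO naïve and 128, 163, 97.5 and 120.3 in KO ONC libraries (log2 1.91, SE 0.55, adjusted p = 0.0151). Neither Il18 nor Tnf overlapped, and the call of Tnf was lost without KO naïve replicate 2 (log2 1.52, adjusted p = 0.0698). Nlrp3 was 98.0, 101, 346 and 209 in KO naïve and 254, 375, 330.0 and 307 in KO ONC libraries and was not called (log2 0.93, adjusted p = 0.105), but it was without KO naïve replicate 3 (log2 1.29, adjusted p = 0.0207). That fit keeps the KO naïve libraries low in identity genes and called 5098 genes, against 4043 with all libraries. The 6 members that did not overlap, Il1a, Il1b, Il18, Tnf, Pycard and Casp1, stand beside 13.4% of all genes. On recovered reads edgeR and DESeq2 each called the same 7 members as limma.

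Leaving out 1 KO naïve library at a time left 6 of these 7 calls without replicate 2 and all 7 without replicate 1, 3 or 4, but none held without all 3 libraries that were low in identity genes. Set against KO naïve replicate 3 alone, whose spread is then assumed to be that of the other groups, 0 of the 7 were called, and the log2 differences were 1.86 for Il1b, 1.34 for Pycard, 0.85 for Il1a, 0.81 for Casp1, 0.87 for Tnf, 0.56 for Il18 and 0.19 for Gsdmd. With only the KO libraries whose Spp1 was under 100, which leaves 1 KO ONC library, 0 of the 7 were called and the log2 differences were 2.51 for Pycard, 2.20 for Il1b and 2.13 for Il1a.

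**Figure D3:**
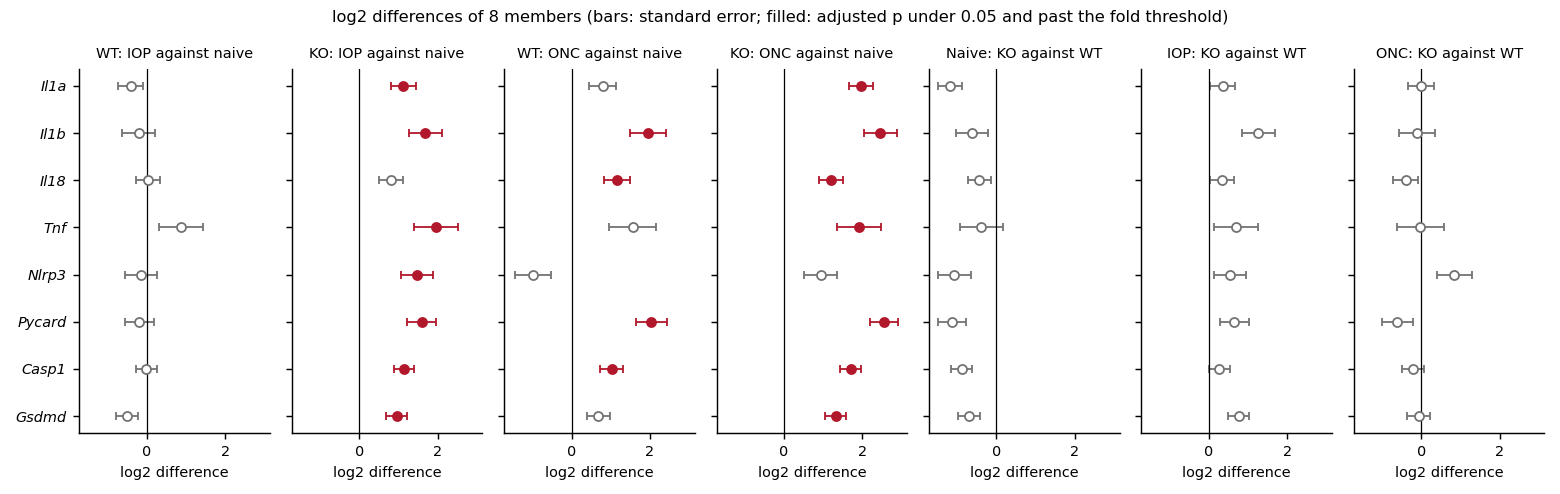
Differences (x axis, log2 of normalized count + 1) of 8 members in 7 comparisons, with the SE as bars. Filled points passed the adjusted p and the fold threshold, 4 for WT ONC against naïve, 7 for KO IOP against naïve and 7 for KO ONC against naïve libraries, and all of them lie above 0.

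After IOP elevation, none of these genes was called in WT microglia. Of the 10 members, 0 were called by limma, where 1.56% of all genes were called, and 0 had an unadjusted p under 0.05, where 13.3% of all genes had. The counts by edgeR and DESeq2 on recovered reads were 0 as well. Il1b was 51.3, 197, 216 and 46.1 in the WT IOP libraries, so that replicates 2 and 3 lay above and replicates 1 and 4 below the naïve libraries (log2 -0.20, SE 0.42, adjusted p = 0.888). Pycard was 1629, 2665, 2722 and 2006, Casp1 532, 768, 729.9 and 474, and Nlrp3 183, 428, 479 and 259. In these genes too the lowest values were those of replicates 1 and 4, the WT IOP libraries low in identity genes and highest in lens genes. Il1a was 1099, 1618, 2375 and 1108, Il18 298, 371, 538 and 325 and Tnf 55.0, 69.0, 139.6 and 74.4, which overlapped with the naïve libraries. Gsdmd was 772, 1429.9, 1493 and 929, below every naïve WT library (exact permutation p = 0.0286, 0.143 after adjustment, and log2 -0.51 with adjusted p = 0.434 by limma). Groups without overlap in this direction made up 7.03% of all genes. Without replicates 1 and 4, the log2 differences were -0.11 for Gsdmd, 0.83 for Il1b, 0.10 for Pycard and 0.38 for Nlrp3, with 0 members called.

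IOP elevation in KO microglia gave 7 members called higher than in KO naïve retinas (Il1a, Il1b, Tnf, Nlrp3, Pycard, Casp1 and Gsdmd), against 5.06% of all genes. Il1b was 283, 269, 189.7 and 234 in the KO IOP libraries, all above the KO naïve range of 62.9 to 113 (log2 1.68, SE 0.42, adjusted p = 0.0239 by limma). Pycard was 3054, 3276, 3661 and 3946, also above all KO naïve libraries (log2 1.59, SE 0.36, adjusted p = 0.0178). Casp1 was 659, 692, 662 and 972 (log2 1.14, SE 0.26, adjusted p = 0.0189). Nlrp3 was 346, 447, 589 and 479.6 (log2 1.48, SE 0.42, adjusted p = 0.0362) and Tnf was 118, 97.4, 243 and 97.9 (log2 1.96, SE 0.55, adjusted p = 0.0369). These 5 genes did not overlap with KO naïve, as 5.43% of all genes did not in this direction. For Nlrp3 the gap was slight, as KO IOP replicate 1 and KO naïve replicate 3 both held 346 after rounding. Il1a was 1277, 2613, 2117 and 1768 (log2 1.12, SE 0.32, adjusted p = 0.0357) and Gsdmd 1700.3, 1984, 1989 and 1895 (log2 0.95, SE 0.27, adjusted p = 0.0375), and both overlapped with KO naïve replicate 3. Il18 was 383, 565, 569 and 405 and was not called (log2 0.81, adjusted p = 0.0896).

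None of these 7 calls held without KO naïve replicate 1, without replicate 2 or without replicate 4, with adjusted p values of 0.0643 to 0.144 by limma. Leaving out KO IOP replicate 2 ended the calls of Il1a, Il1b, Tnf, Nlrp3 and Gsdmd (adjusted p = 0.0538 to 0.0919), replicate 3 or 4 those of Il1a, Tnf, Nlrp3 and Gsdmd (0.0537 to 0.110), and replicate 1 those of Tnf and Gsdmd (0.0524 to 0.0569). Fitting the 2 groups alone or with only the KO libraries whose Spp1 was under 100 gave 0 of the 7 calls, and omitting the filter on low values left 3 (Il1b, Pycard and Casp1). Without KO naïve replicate 3, the 7 stayed called and Il18 was called as well (log2 1.02, adjusted p = 0.0246). That fit keeps the KO naïve libraries low in identity genes and called 3182 genes, against 1347 with all libraries. Against KO naïve replicate 3 alone the log2 differences were 1.08 for Il1b, 0.92 for Tnf, 0.40 for Nlrp3, 0.37 for Pycard, 0.25 for Casp1, 0.013 for Il1a and -0.17 for Gsdmd, with 0 called. On recovered reads, which hold KO IOP replicates 1 and 3 only, edgeR called 0 of the members and DESeq2 called 2, Il1b and Tnf.

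In naïve retinas KO microglia had lower values of 8 of the 10 members than WT, and 0 were called by limma, where 0.409% of all genes were called. An unadjusted p under 0.05 was found for 5 members, all lower in KO (Il1a, Nlrp3, Pycard, Casp1 and Gsdmd), and for 15.6% of all genes. The counts of called members by edgeR and DESeq2 were 0. Il1a had a log2 difference of -1.18 (SE 0.32, adjusted p = 0.0734 by limma) and Pycard of -1.13 (SE 0.36, adjusted p = 0.120). KO naïve replicate 3, with 2680.4 of Pycard, 1863 of Il1a and 346 of Nlrp3, lay in the WT range, and replicates 1, 2 and 4 lay below it. Without replicate 3 the same 5 genes were called lower (log2 -1.55 for Il1a, -1.53 for Pycard, -1.43 for Nlrp3, -1.19 for Casp1 and -1.07 for Gsdmd). That fit keeps the KO naïve libraries low in identity genes, and it called 1623 of 17102 genes, against 70 with all libraries. After rescaling all libraries to the identity list, the values were -0.27 for Il1a, -0.21 for Pycard, -0.17 for Nlrp3, 0.026 for Casp1 and 0.22 for Gsdmd, with 0 called. With replicate 3 alone the log2 differences were -0.071 for Il1a, 0.094 for Pycard, 0.0014 for Casp1 and 0.43 for Gsdmd.

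After IOP elevation, 0 members were called between KO and WT by limma, edgeR or DESeq2, where limma called 2.11% of all genes, and 2 members had an unadjusted p under 0.05, where 21.1% of all genes had. Il1b was 189.7 to 283 in KO IOP and 46.1 to 216 in WT IOP libraries, with an overlap (log2 1.26, SE 0.42, adjusted p = 0.109 by limma). It was called without WT IOP replicate 2 (log2 1.58, adjusted p = 0.0449) or replicate 3 (1.62, 0.0416). Those fits keep the WT IOP libraries low in identity genes and called 574 and 378 genes, against 360 with all libraries. After rescaling to the identity list, the value for Il1b was 0.66 and was not called. Gsdmd was 1700.3 to 1989 in KO IOP and 772 to 1493 in WT IOP libraries, without overlap (log2 0.76, SE 0.27, adjusted p = 0.128), and Pycard did not overlap either (log2 0.65, adjusted p = 0.302). The exact permutation p of both genes without overlap was 0.0286 (0.143 after adjustment), and 5.11% of all genes were higher in KO without overlap. Without WT IOP replicates 1 and 4 the log2 differences were 0.22 for Il1b, 0.37 for Gsdmd and 0.36 for Pycard.

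The response to IOP elevation was compared between the genotypes with an interaction term. The change from naïve to IOP was higher in KO than in WT for Il1a (log2 difference of the changes 1.54, SE 0.45, adjusted p = 0.0356 by limma), Pycard (1.78, SE 0.51, adjusted p = 0.0338) and Gsdmd (1.46, SE 0.38, adjusted p = 0.0237). These 3 members stand beside 4.85% of all genes called in that direction. The identity list moved alike in this term, with 12 of 22 genes called higher, 1 lower and a median of 1.48. After rescaling to that list the values were 0.020 for Il1a, 0.26 for Pycard and -0.056 for Gsdmd, and none of the 3 was called. The log2 change of Il1a was -0.41 in WT and 1.12 in KO, that of Pycard -0.19 and 1.59, and that of Gsdmd -0.51 and 0.95. Without WT IOP replicates 1 and 4 the interaction values were 1.12, 1.49 and 1.07 in that order (adjusted p = 0.285, 0.238 and 0.224), and with KO naïve replicate 3 alone they were 0.42, 0.56 and 0.34 (adjusted p = 0.881, 0.870 and 0.874). Leaving out WT IOP replicate 1 or 4 or KO naïve replicate 1, 2 or 4 ended each of the 3 calls (adjusted p = 0.0508 to 0.0923). Those of Il1a and Pycard were also lost without any of the 4 WT naïve libraries or KO IOP replicate 3, that of Il1a without KO IOP replicate 2 and that of Pycard without KO IOP replicate 4 (adjusted p = 0.0505 to 0.0706). Other members were called when some single libraries were left out. Il1b and Casp1 were called without WT IOP replicate 2 (log2 2.20 and 1.26) or replicate 3 (2.25 and 1.24), and Il1b, Casp1 and Nlrp3 without KO naïve replicate 3 (2.08, 1.45 and 1.98). None of the libraries left out here was low in identity genes. These fits called 1932, 1707 and 3074 of 17102 genes in that order, against 1496 with all libraries. After rescaling to the identity list, the values were 0.38 for Il1b, -0.36 for Casp1 and 0.11 for Nlrp3, with none called. On recovered reads edgeR and DESeq2 called 0 of the members in this term.

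After ONC 0 members were called between the genotypes by limma, edgeR or DESeq2, where limma called 0.0877% of all genes. The mean of Il1b was 451 ± 72.2 (SD, n = 3) in WT and 435 ± 174 (SD, n = 4) in KO libraries, and limma gave a log2 difference of -0.11 (SE 0.45) with an adjusted p of 0.969. Il1a was 3461 ± 900.0 in WT and 3435 ± 758 in KO libraries (log2 -0.0082, SE 0.34, adjusted p = 1), and Gsdmd 2593 ± 640.5 and 2439 ± 283 (log2 -0.067, SE 0.29, adjusted p = 0.972). Pycard was 12618 ± 9726 in WT and 6856 ± 1258 in KO libraries, with the WT spread set by replicate 1 (log2 -0.61, SE 0.39, adjusted p = 0.669). In the interaction of genotype and ONC 0 members were called by any of the 3 tools, where limma called 0.0702% of all genes, and 3 had an unadjusted p under 0.05 (Il1a, Il10 and Nlrp3), where 12.4% of all genes had. The log2 values were 1.17 for Il1a, 1.92 for Nlrp3 and 4.22 for Il10 (adjusted p = 0.299, 0.203 and 0.322). Without KO naïve replicate 3, Il1a and Nlrp3 were called in this term (log2 1.54 and 2.27, adjusted p = 0.0285 and 0.0318). That fit keeps the KO naïve libraries low in identity genes, and it called 633 of 17102 genes, against 12 with all libraries. After rescaling all libraries to the identity list, the values were 0.25 for Il1a and 0.99 for Nlrp3, and neither was called.

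Il10, the cytokine that restrains macrophages, and Il6 were near the limit of detection. Il10 was at 0 in the 3 WT ONC libraries and 18.0, 29.4, 10.7 and 23.1 in the KO ONC libraries. The KO ONC mean of 20.3 (SD 7.91, n = 4) was 5.54 times the mean of 3.66 normalized counts that 3 reads per WT ONC library would give. This ratio leaves out the spread of the KO libraries, so it is not a lower bound. This was the 1 member with an unadjusted p under 0.05 in this comparison, where 9.36% of all genes had one, and the 1 member whose groups did not overlap, where 3.96% of all genes were higher in KO without overlap. The border macrophage genes were higher in KO than in WT ONC libraries in 10 of 10 cases, with 1 called and a median log2 difference of 2.16, and Mrc1 was 4071 ± 2262 (SD, n = 4) against 795 ± 632 (SD, n = 3), whose part in the Il10 values was not tested. Il10 was not called (adjusted p = 0.262 by limma, exact permutation p = 0.0571). Il10 was 9.76, 15.5, 0 and 7.43 in WT naïve, 35.7, 21.9, 0 and 9.75 in WT IOP, 2.45, 7.24, 37.8 and 0.850 in KO naïve and 0, 9.04, 14.4 and 0 in KO IOP libraries. Thus 7 of 23 libraries held 0, and the KO naïve value of 37.8 exceeded all KO ONC values. DESeq2 alone called Il10 lower in WT ONC than in WT naïve libraries. Il6 was 9.76, 2.45, 47.3 and 2.79 in WT naïve, 17.4, 13.1, 45.3 and 28.4 in WT IOP, 0, 3.45 and 30.4 in WT ONC, 2.45, 21.7, 124 and 32.3 in KO naïve, 4.07, 19.1, 5.16 and 23.2 in KO IOP and 46.7, 0, 0 and 29.6 in KO ONC libraries. It reached 10 normalized counts in 13 of 23 libraries and was called in 0 of the 9 comparisons by limma, with adjusted p values of 0.295 to 0.980. Differences of a few reads were not detectable at this depth, since 3 reads equal 2.41 to 4.03 normalized counts.

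**Figure D4:**
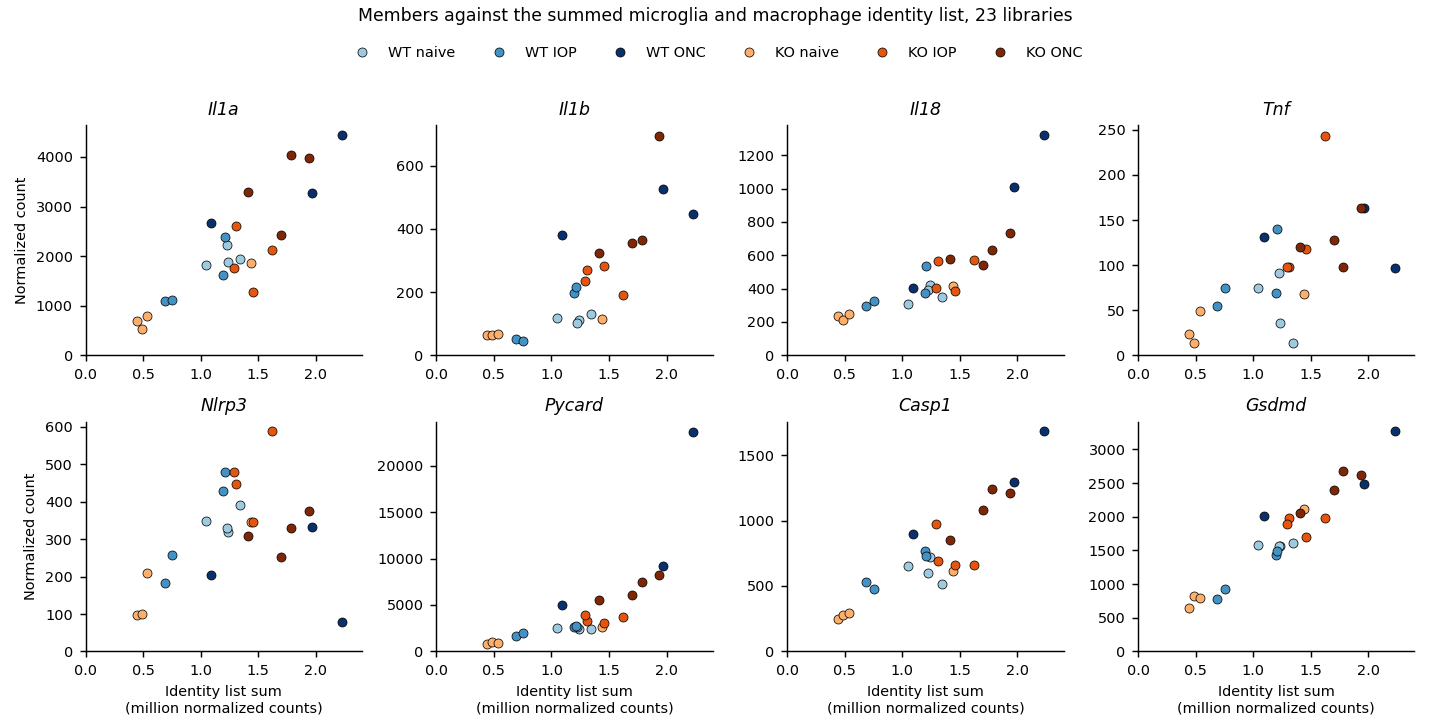
Normalized counts of 8 members (y axis) against the summed normalized counts of 21 microglia and macrophage identity genes (x axis), with 1 point per library and colours for the 6 groups. Gsdmd follows the identity sum closely (r = 0.959 of log2 values over 23 libraries), Il1b and Pycard lie higher in ONC than in naïve libraries of similar sum, and Nlrp3 is low in WT ONC libraries for their sum.

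Most members moved with the identity list across libraries. Pearson's r of log2 values over the 23 libraries, which share groups and size factors, was 0.959 for Gsdmd, 0.908 for Casp1, 0.905 for Il1a, 0.898 for Pycard, 0.870 for Il18, 0.833 for Il1b, 0.641 for Tnf and 0.461 for Nlrp3, against -0.224 for Il6 and -0.0126 for Il10. The mean identity sum was 2.35 times as high in KO ONC and 1.95 times as high in KO IOP as in KO naïve libraries, and 1.45 times as high in WT ONC as in WT naïve libraries. Per 100000 identity counts, Pycard was 209 ± 25.3 (SD, n = 4) in WT naïve, 663 ± 342 (n = 3) in WT ONC, 180.2 ± 14.9 in KO naïve, 248 ± 42.1 in KO IOP and 400.1 ± 31.9 (n = 4 each) in KO ONC libraries. Il1b per 100000 identity counts was 9.61 ± 1.27 in WT naïve, 27.2 ± 7.38 in WT ONC, 11.9 ± 2.79 in KO naïve, 17.5 ± 3.98 in KO IOP and 25.0 ± 7.28 in KO ONC libraries. On this scale Il1b, Pycard and Casp1 were above the naïve libraries after ONC in both genotypes without overlap, and Il18 was in WT. Of all genes tested, 5.32% in WT and 1.54% in KO were higher without overlap on this scale. Gsdmd per 100000 identity counts ranged from 119.8 to 152 in WT naïve, 126 to 184 in WT ONC, 145 to 170.4 in KO naïve and 135 to 151 in KO ONC libraries, which overlapped in each genotype. Nlrp3 was 28.9 ± 3.37 in WT naïve and 13.1 ± 8.33 in WT ONC libraries on this scale, without overlap and lower after ONC, as 16.8% of all genes were.

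All libraries were also rescaled to the identity list and fitted again, a scale on which the median gene moved by -0.55 after ONC in WT, -1.49 after ONC in KO and -1.24 after IOP elevation in KO. Genes called higher and lower numbered 317.0 and 1476.0 after ONC in WT (against 1292.0 and 1801.0 before rescaling), 217.0 and 10853.0 after ONC in KO (2165.0 and 1878.0 before) and 45.0 and 9064.0 after IOP elevation in KO (866.0 and 481.0 before). Il1b and Pycard were called higher after ONC on this scale as well. Their log2 differences were 1.47 and 1.56 in WT and 1.06 and 1.15 in KO (adjusted p = 0.0309, 0.000171, 0.0245 and 0.000364 by limma). Nlrp3 was called lower after ONC in WT (log2 -1.46, adjusted p = 0.0365), and Il6 was called lower after ONC in KO (log2 -2.99, adjusted p = 0.0399). Il18 and Casp1 after ONC had log2 values of 0.68 and 0.54 in WT and -0.21 and 0.30 in KO and were not called. Of the 7 members called after IOP elevation in KO, 0 were called on this scale. The direction of Il1a, Il18 and Gsdmd after IOP elevation in KO, and of Il18, Nlrp3 and Gsdmd after ONC in KO, flipped to lower. The part of microglial content in these changes was not tested.

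Markers of other leukocytes were read as well, since such cells can carry the same cytokines. The neutrophil genes Ly6g, Camp, Ngp and S100a9 were at 0 in 23, 18, 21 and 15 of the 23 libraries, and the neutrophil list of 12 genes summed to 0.0202 to 0.0675% of a library. S100a8 was 10.9 to 64.7 normalized counts in WT IOP libraries. The sum of the neutrophil list was 4680 to 11034 normalized counts in KO naïve and 17283 to 20803 in KO ONC libraries, so it moved with the members called there. Csf3r, the G-CSF receptor, made up at least 56.4% of this sum in each of the 23 libraries and 96.5 to 97.1% in KO ONC libraries. Ccr2, a monocyte receptor, was 117 to 2177 in KO IOP and 12.1 to 464 in the other groups, but the monocyte list did not follow it throughout. The 10 monocyte genes together made up 0.0200 to 0.0962% of a library. Their sum was 11441 to 19647 normalized counts in KO IOP and 10383 to 24946 in WT IOP libraries. After IOP elevation, KO minus WT was positive for 3 of the 10 and negative for 7 (median log2 -0.23, 0 called). KO IOP minus KO naïve was positive for 8 and negative for 2 (median log2 1.10, 2 called higher). Border macrophage genes were called lower in WT ONC than in WT naïve libraries in 8 of 10 cases and higher in 0, with Mrc1 at 9871 ± 2512 (SD, n = 4) in WT naïve and 795 ± 632 (SD, n = 3) in WT ONC libraries. Cd3e, a T cell gene, was 57.7 at most, in a WT ONC library, and the 12 T and NK cell genes summed to 0.00117 to 0.00424% of a library. The mean of Cd3e was 27.3 ± 27.1 (SD, n = 3) in WT ONC and 4.80 ± 1.87 (SD, n = 4) in WT naïve libraries. The list summed to 299 to 839 normalized counts in WT ONC and 580 to 1070 in WT naïve libraries. After ONC in WT, 10 of the 12 were higher and 2 lower (median log2 0.89, 1 called in each direction, beside 7.55% of all genes called higher). KO minus WT after ONC was positive for 3 and negative for 9 (median log2 -1.16, 0 called). The part of these cells in the cytokine values was not tested.

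Other genes of the pathway were read from lists. After ONC, 7.55% of all genes were called higher in WT and 12.7% in KO, and 1801 and 1878 of 17102 genes were called lower. After IOP elevation, 1.56% of all genes were called in either direction in WT, and 5.06% were called higher in KO. Of the 22 identity genes, 4 were called higher after ONC in WT and 18 in KO. After IOP elevation in KO, 13 of them were called higher and 1 lower. Of 21 tested inflammasome sensors and pyroptosis genes, 5 were called higher and 1 lower after ONC in WT, and 12 higher and 0 lower after ONC in KO, with median log2 differences of 0.26 and 1.29 beside -0.10 and -0.12 over all genes. The interferon-induced GTPase Gbp2 rose in both (log2 2.59 and 2.67), as did Casp4, the caspase that responds to cytosolic lipopolysaccharide (1.73 and 1.71), and Gbp3 (1.56 and 1.67). In WT, Pstpip1, which binds pyrin (1.64), and Nek7, the partner of NLRP3 (1.58), rose and Gsdme, another gasdermin (-0.67), fell. In KO the NAIP sensors Naip2, Naip5 and Naip6 (1.61, 1.70 and 1.41), the adaptor Card9 (1.42) and Casp8 (1.29) rose. After IOP elevation, 0 of 21 were called in WT and 6 were called higher in KO (Card9, Naip6, Pstpip1, Casp8, Naip2 and Casp4, log2 0.98 to 1.28). Against KO naïve replicate 3 alone, 1 of the 21 (Gbp2) was called higher after ONC in KO and 0 after IOP elevation. Without WT ONC replicate 1, Casp4, Gbp2 and Gbp3 were called higher and Gsdme lower in WT, and with rescaling to the identity list Gbp2, Gbp3 and Pstpip1 were called higher and Txnip lower. In KO, rescaling left Gbp2 called higher, and Gbp5, Gsdme, Ninj1, Nlrc4 and Txnip were called lower after ONC.

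Among 16 tested ligands, receptors and inhibitors of IL-1 and IL-18, 4 were called higher and 2 lower after ONC in WT, and 5 higher and 1 lower after ONC in KO. Of all genes, 7.55% were called higher in WT and 12.7% in KO, and 1801 and 1878 of 17102 were called lower. Their median log2 difference was 0.25 after ONC in WT and 0.51 in KO. Il1rn, the receptor antagonist that blocks IL-1, had the largest increase of the 16, with a log2 of 3.93 (SE 0.48) in WT and 4.54 (SE 0.44) in KO. Il18bp, which binds and neutralizes IL-18, rose by 1.59 and 1.51, and the adaptor Myd88 by 0.92 and 0.94. In WT the receptor subunit Il1rap (1.19) rose and the decoy receptor Il1r2 (-2.85) and Tollip, an inhibitor of the pathway (-0.58), fell. In KO the kinases Irak4 (1.20) and Irak2 (0.64) rose and the alarmin Il33 (-1.69) fell. In that comparison 9 of 11 Müller glia and astrocyte genes were lower and 2 higher (median log2 -0.61, 5 called lower, 0 higher). Their sum was 205486 to 322574 normalized counts in KO naïve and 259314 to 379720 in KO ONC libraries. The part of these cells in the Il33 value was not tested. After IOP elevation 0 of 16 were called in WT and 3 were called higher in KO, Il1rn (2.94), Irak4 (1.02) and Myd88 (0.76). The interaction of genotype and IOP elevation was called for Il1rn (3.35, adjusted p = 0.00547 by limma) and Irak4 (1.26), where 4.85% of all genes were called higher. Against KO naïve replicate 3 alone, Il1rn was called higher after ONC in KO and 0 of 16 were called after IOP elevation or in the interaction. Without WT ONC replicate 1, Il1rn and Il1rap were called higher and Tollip lower in WT, and after rescaling to the identity list Il1rn was the 1 gene of the 16 called higher after ONC in either genotype. On that scale Il1r2 and Tollip were called lower in WT, and 8 genes were called lower in KO (Il18rap, Il1r1, Il1r2, Il1rap, Il33, Irak2, Tollip and Traf6), so that Irak2 changed its direction.

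Of 14 tested genes of TNF processing, receptors and feedback, 1 was called higher after ONC in WT (Ripk1, a kinase of the TNF receptor complex, log2 2.03) and 10 were called higher after ONC in KO. These counts stand beside 7.55% of all genes called higher in WT and 12.7% in KO, and the WT count is near that share. Of the 22 identity genes, 4 were called higher in WT and 18 in KO. The median log2 difference over the 14 was 0.11 after ONC in WT and 0.82 in KO. Among the genes called in KO were Adam17, the protease that sheds TNF (1.31), its partner Rhbdf2 (1.32), the receptors Tnfrsf1a (0.83) and Tnfrsf1b (0.90), the necroptosis kinase Ripk3 (1.84), the adaptor Traf2 (0.73), Birc3 (0.97) and the caspase-8 inhibitor Cflar (0.81). Cflar, Rhbdf2, Adam17 and Tnfrsf1b were called higher after IOP elevation in KO (0.65 to 0.99), and 0 of 14 were called in WT. Cflar was lower in KO than in WT in naïve retinas (log2 -0.77). Against KO naïve replicate 3 alone, 0 of the 14 were called in any of these KO comparisons, and after rescaling to the identity list 0 of 14 were called higher and 2 (Birc2 and Tnfaip3) were called lower after either injury in KO.

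Of 15 tested receptors and signalling genes of IL-6 and IL-10, 4 were called higher after ONC in WT and 7 in KO, and 0 lower. The shares of all genes called higher were 7.55% in WT and 12.7% in KO. For the 15 genes the median log2 difference was 0.63 after ONC in WT and 1.13 in KO. Among them, Stat3 (log2 0.63 and 0.97) and the feedback inhibitor Socs3 (1.13 and 1.99) rose in both. Socs1 (5.77) rose in WT, and the receptor genes Il10ra (1.33) and Il10rb (1.13), the kinase Tyk2 (1.10) and the cytokine Osm (1.41) rose in KO. After IOP elevation, Bcl3 (log2 4.87) rose in WT, and Socs3 (1.89), Stat3 (0.83) and Tyk2 (0.72) rose in KO. After IOP elevation, Bcl3, a nuclear partner of NF-kB, was lower in KO microglia than in WT (log2 -4.07, adjusted p = 0.0257 by limma), a call that was lost, as was that of Bcl3 in WT, without WT IOP replicates 1 and 4. Against KO naïve replicate 3 alone, 0 of the 15 were called in KO after either injury. Without WT ONC replicate 1, Socs1 and Stat3 were still called in WT and Socs3 was not. After rescaling to the identity list Socs1 was still called higher after ONC in WT, and Stat3 and Socs3 were not. In KO on that scale, Stat3, Socs3, Il10ra, Il10rb, Tyk2 and Osm were not called after ONC, and Il6st, Jak1 and Osmr were called lower. After IOP elevation on that scale, Bcl3 was called higher in WT, and Jak2 and Osmr were called lower in KO.

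Immediate early genes can rise during tissue dissociation and sorting. Their summed level was 0.0544 to 0.0949% of a library, and 0 of 19 were called between the genotypes in any condition. Of all genes, 0.409% were called between the genotypes in naïve retinas, 2.11% after IOP elevation and 0.0877% after ONC, so the count of 0 is near these shares. After ONC 4 of 19 were called higher and 3 lower in WT, and 6 higher and 0 lower in KO. Beside them, 7.55% of all genes were called higher in WT and 12.7% in KO. Atf3 rose after IOP elevation in WT (log2 1.04) and KO (0.90), where Junb (1.11), Egr2 (1.98), Klf6 (0.89) and Zfp36 (0.81) rose as well, and after ONC (0.97 and 2.07). After ONC in WT, Egr1 (4.22), Egr2 (2.24) and Ier5 (2.17) rose and Fos (-1.51), Nr4a1 (-1.91) and Ier3 (-0.94) fell. After ONC in KO, Egr1 (2.98), Egr2 (3.85), Junb (1.21), Klf6 (0.75) and Zfp36 (1.13), whose product destabilizes Tnf mRNA, rose. Several of these calls did not hold. Against KO naïve replicate 3 alone, 1 of the 19 (Atf3) was called after ONC in KO and 0 after IOP elevation, and 0 were called after IOP elevation in WT without replicates 1 and 4. Without WT ONC replicate 1, Atf3, Egr1, Egr2 and Ier5 were called higher and 0 lower in WT. After rescaling to the identity list, Egr1 and Egr2 were called higher and Fos and Nr4a1 lower after ONC in WT, and Egr2 was called higher and Btg2, Fos, Ier3, Klf2 and Klf6 lower after ONC in KO. On that scale 0 were called higher and 4 lower (Btg2, Ier3, Jund and Klf2) after IOP elevation in KO, and 0 were called in WT. The part of these genes in the cytokine values was not tested.

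Over the 23 libraries, the genes whose log2 values were most like those of Il1b among the 17102 tested were P2rx4, an ATP receptor of microglia (Pearson's r = 0.959), the chemokine Cxcl16 (0.943), Cd72 (0.941), Dpp7 (0.939), Il2rg, the common cytokine receptor chain (0.938), Galns (0.937), Tor3a (0.936) and Axl, a receptor for apoptotic cells (0.936). Of the other members, Gsdmd was at rank 192 (0.881), Pycard at 283, Casp1 at 320, Il1a at 462 and Il18 at 584. Tnf was at rank 1885, Nlrp3 at 5027, Il10 at 9113 and Il6 at 10936. These values describe the libraries, which share their groups and differ in microglial content.

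Some counts can hold reads of other transcripts. Il1b (chr2:129364570-129371139, minus strand, GENCODE M21 on GRCm38) overlaps the antisense gene Il1bos, and Il1a (chr2:129299610-129309972, minus strand) overlaps Gm14023 on the opposite strand. Il18 (chr9:50554827-50581840, plus strand) overlaps Bco2 and Tex12, and Pycard (chr7:127989708-127993867, minus strand) overlaps Gm45205. Whether the counting used strand was not given in the sources used here, so the reads of these pairs cannot be told apart. Tnf (chr17:35199381-35202007, minus strand), Il6 (chr5:30013114-30019981, plus strand), Il10 (chr1:131019845-131024974, plus strand), Nlrp3 (chr11:59541568-59566956, plus strand), Casp1 (chr9:5298517-5307265, plus strand) and Gsdmd (chr15:75862327-75867408, plus strand) overlapped no other gene of that annotation.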

How the data were processed

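RNA was measured by sequencing in 23 libraries of GFP+ retinal microglia. The deposited table holds a signal per gene, made by the authors by dividing reads per gene by a DESeq2 size factor of each library. The submitters' processing notes name STAR, DESeq2 and GRCm38, and the study's methods name salmon and DESeq2. Tool versions and annotation were not given in the sources used here. Size factors assume that most genes do not change, so a shift in the share of microglial RNA moves all microglial genes.

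Symbols were matched for 35436 of 35825 genes. A gene was kept if 3 or more libraries had normalized counts of 10 or more, and these 17102 genes were fitted with limma 3.58.1 (R 4.3.3) on log2(normalized count + 1) in 1 fit of the 6 groups with a mean-variance trend. This fold change understates that of low genes. There were 9 comparisons: each injury against naïve per genotype, the genotypes within each condition and 2 interactions. Adjusted p-values are Benjamini-Hochberg values over all tested genes. In 21 libraries 100% of values were whole multiples of the step of 1 read, within 0.1 of a step, and the recovered reads on genes numbered 22180480 to 30296094 (median 27114209). KO IOP replicates 2 and 4 were not recoverable, so after IOP elevation edgeR 4.0.16 and DESeq2 1.42.0 rest on KO IOP replicates 1 and 3. On these reads edgeR called 2415 genes after ONC in WT and 3599 in KO, and 154 and 17 after IOP elevation. Floors of 3 reads cover counting error only. Replicates of a group correlated at 0.876 to 0.956, and 0 pairs of libraries were identical.

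The limma fit was run on simulated log2 values for ONC in WT only. The other comparisons, edgeR and DESeq2 were not tested in this way. Python 3.11.15, pandas 2.3.3, numpy 2.4.6, scipy 1.17.1 and matplotlib 3.10.9 were used. The alternatives were a pseudocount of 0.5 or 5, omission of the filter, a filter at a mean of 50, rescaling to the upper quartile, a replicate block, the compared groups alone, edgeR, DESeq2 and leaving out each library. A further 4, chosen after seeing the data, were rescaling to the identity list, leaving out WT IOP replicates 1 and 4, leaving out KO naïve replicates 1, 2 and 4, and keeping only KO libraries with Spp1 under 100. The members and gene lists were chosen with earlier results of these data known. All 10 members were named, with the called genes of each pathway list up to 8 and the 8 genes most like Il1b, except for a result that is not reported here. Promoters were matched by symbol for 8 members.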

Additional observations from a re-analysis of the deposited data

Results flagged for a closer look

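In 8 of the 50 pairs of a member and a group of 4 libraries, 1 library lay far from the other libraries by Dixon's test, which chance does in about 1 of 20 groups. KO naïve replicate 3 was the high library for 4 members. Its normalized counts were 113 of Il1b against 62.9 to 68.0 in the other KO naïve libraries, 2680.4 of Pycard against 755 to 967, 617 of Casp1 against 245 to 292 and 2121 of Gsdmd against 642 to 831. The microglia and macrophage identity genes held 5.49% of that library and 1.91 to 2.52% of the others, and the part of this difference in the 4 values was not tested. KO ONC replicate 2 held 695 of Il1b against 323 to 366 in the other KO ONC libraries. In the KO IOP group, replicate 3 held 243 of Tnf against 97.4 to 118 and replicate 4 held 972 of Casp1 against 659 to 692. WT naïve replicate 3 held 47.3 of Il6 against 2.45 to 9.76.

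The response to IOP elevation differed between the genotypes by the interaction term of limma for Il1a (log2 1.54), Pycard (1.78) and Gsdmd (1.46). On recovered reads, after rescaling to the identity list (log2 0.020, 0.26 and -0.056), without WT IOP replicates 1 and 4 and with KO naïve replicate 3 alone, 0 of the 3 were called. These 3 values share the KO naïve libraries with the values above.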

How the results depend on the processing

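The number of genes called by limma was 267 for IOP elevation in WT, 3093 for ONC in WT, 1347 for IOP elevation in KO, 4043 for ONC in KO, 70 for genotype in naïve retinas, 360 for genotype after IOP elevation, 15 for genotype after ONC, 1496 for the interaction with IOP elevation and 12 for the interaction with ONC. Fitting the compared groups alone gave 520 for IOP elevation in WT, 1749 for ONC in WT, 5 for IOP elevation in KO, 14 for genotype in naïve retinas, 229 for genotype after IOP elevation, 2 for genotype after ONC and 6 for the interaction with ONC. edgeR on recovered reads gave 154 for IOP elevation in WT, 17 for IOP elevation in KO, 13 for genotype in naïve retinas, 20 for genotype after IOP elevation, 2 for genotype after ONC, 371 for the interaction with IOP elevation and 0 for the interaction with ONC. DESeq2 on these reads gave 580 for IOP elevation in WT, 480 for genotype in naïve retinas, 769 for genotype after IOP elevation, 85 for genotype after ONC and 198 for the interaction with ONC. Rescaling to the identity list gave 107 for IOP elevation in WT, 1793 for ONC in WT, 9109 for IOP elevation in KO, 11070 for ONC in KO, 40 for genotype in naïve retinas, 234 for genotype after IOP elevation, 4 for genotype after ONC, 7586 for the interaction with IOP elevation and 0 for the interaction with ONC. Without KO naïve replicates 1, 2 and 4 there were 10 for IOP elevation in KO, 74 for ONC in KO, 8 for genotype in naïve retinas and 48 for the interaction with IOP elevation. Without WT IOP replicates 1 and 4 there were 15 for IOP elevation in WT, 29 for genotype after IOP elevation and 62 for the interaction with IOP elevation. With only the KO libraries whose Spp1 was under 100 there were 16 for IOP elevation in KO, 190 for ONC in KO, 1 for genotype in naïve retinas, 107 for genotype after IOP elevation, 2 for genotype after ONC, 144 for the interaction with IOP elevation and 1 for the interaction with ONC. A pseudocount of 5 gave 6 for the interaction with ONC. No filter on low values gave 877 for IOP elevation in KO and 5 for the interaction with ONC. A mean of at least 50 gave 132 for genotype in naïve retinas. Leaving out 1 library at a time gave 102 to 332 for IOP elevation in WT, 1458 to 5213 for ONC in WT, 92 to 3182 for IOP elevation in KO, 2798 to 5098 for ONC in KO, 1 to 1623 for genotype in naïve retinas, 109 to 574 for genotype after IOP elevation, 2 to 744 for genotype after ONC, 573 to 3074 for the interaction with IOP elevation and 3 to 633 for the interaction with ONC. The log2 differences that changed sign were -0.017 for Il1a (IOP elevation in KO), -0.33 for Il18 (IOP elevation in KO), -0.19 for Gsdmd (IOP elevation in KO), -0.21 for Il18 (ONC in KO), -0.47 for Nlrp3 (ONC in KO), -0.090 for Gsdmd (ONC in KO), 0.026 for Casp1 (genotype in naïve retinas), 0.22 for Gsdmd (genotype in naïve retinas), -0.36 for Casp1 (the interaction with IOP elevation) and -0.056 for Gsdmd (the interaction with IOP elevation) with rescaling to the identity list, and -0.17 for Gsdmd (IOP elevation in KO), -0.14 for Nlrp3 (ONC in KO), 0.094 for Pycard (genotype in naïve retinas), 0.0014 for Casp1 (genotype in naïve retinas) and 0.43 for Gsdmd (genotype in naïve retinas) without KO naïve replicates 1, 2 and 4. With a replicate block the counts were 258 for IOP elevation in WT, 2592 for ONC in WT, 1438 for IOP elevation in KO, 3986 for ONC in KO, 108 for genotype in naïve retinas, 354 for genotype after IOP elevation, 13 for genotype after ONC, 1547 for the interaction with IOP elevation and 7 for the interaction with ONC, and 2 members gained a call, Il1b and Nlrp3 in the interaction with IOP elevation (log2 1.88 and 1.62), and 0 lost one. The labels do not say whether the replicate numbers pair the libraries. Deviations of libraries with the same number correlated at -0.253 to 0.153. Libraries with different numbers were not compared in this way, so a shared preparation was not tested. The alternatives gave 867 values for the 41 member results with an unadjusted p under 0.05 by limma, of which 21 were called. Of the 867, 679 kept direction and side of the threshold, which includes results called in neither fit. A further 147 kept direction and no longer passed the threshold, and 26 kept direction and newly passed it. The other 15 changed sign, and some of these, such as Il1a and Gsdmd after IOP elevation in KO, also lost a call. The 7 member calls after IOP elevation in KO were lost without any 1 of 3 naïve libraries. Those after ONC were lost without all 3, a fit with 1 naïve library, and leaving out 1 of them ended at most 1 call. Spp1 and Cx3cr1 went against the labels or the other groups in several KO libraries. Counts of Il6 and Il10 were too low for small differences to be seen.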
